A study of Mus musculus with 11 samples.

Results

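Classical and related MHC class I molecules display peptides from inside the cell to CD8 T cells and natural killer cells. The 10 genes described here encode the parts of that machinery: the light chain B2m, the heavy chains H2-K1, H2-D1 and H2-T23, the peptide transporter subunits Tap1 and Tap2, the loading factor Tapbp (tapasin), the interferon-inducible proteasome subunits Psmb8 and Psmb9, and the trimming peptidase Erap1. They were chosen by name from 54232 Ensembl gene identifiers, with earlier results of these data known. All 10 passed the filter on low counts. RNA was sequenced from hepatocytes of adult male C57BL/6 mice that carried floxed Xbp1 alleles alone (Xbp1fl/fl, labelled control) or lacked Xbp1 in the liver (Xbp1LKO, through Cre recombinase under the albumin promoter). The diet was either normal chow or HFS, rich in fat and sugar, given for up to 6 weeks. The 11 libraries were 3 from Xbp1fl/fl mice on chow, 2 from Xbp1LKO mice on chow, 3 from Xbp1fl/fl mice on the HFS diet and 3 from Xbp1LKO mice on the HFS diet. RNA of 1 mouse made up a library on chow and RNA of 2 mice, pooled, a library on HFS. The chow and HFS comparisons of genotype therefore share no library, although all 4 groups share 1 estimate of the spread.

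In this pathway the proteasome cuts cytosolic proteins, and interferon-inducible subunits replace constitutive ones to make the immunoproteasome. The Tap1 and Tap2 proteins carry the peptides into the endoplasmic reticulum, where Erap1 trims them and Tapbp bridges the transporter to an empty heavy chain bound to B2m. Most of the genes lie in the MHC and are induced together by interferon gamma and the transactivator Nlrc5. Hepatocytes carry low levels of class I protein at rest, and mouse liver also makes a soluble class I heavy chain, H2-Q10. XBP1, made active by IRE1 in the unfolded protein response, drives genes of the secretory pathway through which class I molecules pass.

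On GRCm38, 8 of the 10 genes lie on chromosome 17, from Tapbp (33915899 to 33929292, plus strand) and H2-K1 (33996017 to 34000347, minus strand) to H2-D1 (35262730 to 35267499, plus strand) and H2-T23 (36029773 to 36032855, minus strand). Between them Psmb9 (34181987 to 34187764, minus strand), Tap1 (34187553 to 34197225, plus strand), Psmb8 (34197721 to 34201454, plus strand) and Tap2 (34203527 to 34216321, plus strand) form 1 cluster, with 225 bases between the RefSeq starts of Psmb9 and Tap1. B2m lies on chromosome 2 (122147686 to 122153083, plus strand) and Erap1 on chromosome 13 (74639568 to 74693201, plus strand). The stretches upstream of the RefSeq starts (GRCm38.p6) are shown for B2m and H2-K1, since these genes were lower without Xbp1, together with the 30 bases around 1 motif match in H2-D1 and H2-T23. Capitals mark matches, on either strand, to the interferon response core (a pair of GAAA with NN between), to a kappa B type site of class I enhancers (the letters in capitals in the H2-D1 line), to TGACGC (the core of an X2 type box) and to CCAAT.
B2m, chr2:122147437-122147686, plus strand: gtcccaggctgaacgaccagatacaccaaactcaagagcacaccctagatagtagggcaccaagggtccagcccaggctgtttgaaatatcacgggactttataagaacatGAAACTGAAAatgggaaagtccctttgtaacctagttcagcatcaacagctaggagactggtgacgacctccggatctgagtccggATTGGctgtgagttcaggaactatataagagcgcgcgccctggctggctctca
H2-K1, chr17:34000348-34000597, minus strand: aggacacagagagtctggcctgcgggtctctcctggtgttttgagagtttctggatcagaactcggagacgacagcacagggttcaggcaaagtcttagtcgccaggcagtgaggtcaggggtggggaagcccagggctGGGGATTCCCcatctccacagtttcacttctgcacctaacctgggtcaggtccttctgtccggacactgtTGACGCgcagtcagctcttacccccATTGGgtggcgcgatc
H2-D1, chr17:35262913-35262942, plus strand: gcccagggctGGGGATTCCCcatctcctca
H2-T23, chr17:36032806-36032835, minus strand: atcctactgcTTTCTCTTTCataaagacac

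The promoter table held 9 of the 10 genes (not Tap2), each as a window from 250 bases before to 50 bases after the start. The interferon response core stood 139 bases upstream in B2m, 124 bases upstream in H2-T23 and 4 bases upstream in Erap1, and 3.44% of 32851 windows held it. The kappa B type letters stood 111 bases upstream in H2-K1 and 171 bases upstream in H2-D1, against 0.107% of all windows. Those 2 genes also held TGACGC, found in 7.40% of windows. CCAAT stood in 7 of the 9 windows and in 37.4% of all windows. Neither TGACGTGG, a core that XBP1 binds, nor the ER stress element (CCAAT and CCACG with a fixed spacer) was found in the 9 windows, against 0.676% and 0.119% of all windows. A match is a run of letters, not a measured binding site, and for letters this rare a lack of matches in 9 windows tells little.

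Total counts were 19191032 to 23888401 per library. Values are CPM, a gene's count scaled to a common library size with TMM factors, and fold changes come from 1 edgeR quasi-likelihood model of 13303 genes, in which a gene was called when its Benjamini-Hochberg adjusted p was under 0.05. Xbp1 itself was 194 to 221 CPM in Xbp1fl/fl and 95.7 and 128 CPM in Xbp1LKO libraries on chow. On the HFS diet it was 242 to 301 CPM and 97.3 to 135 CPM, and the genotypes did not overlap on either diet. Counts per gene do not separate exons, so these levels do not measure how complete the loss of Xbp1 was. By qPCR, the paper found the Xbp1 exon it measured essentially absent from hepatocytes of chow-fed Xbp1LKO mice. With library totals in place of TMM, the median log2 fold change of all genes was 0.33 on chow and 0.27 on the HFS diet, against 0.00 and 0.01 with TMM. Higher genes were then 89.5% and 86.9% of those called, against 36.4% and 47.1%. The direction of Tap2, Psmb8, Psmb9 and Erap1 turned with that scaling, while those of the other 6 genes did not.

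Per kb of exon, transcript levels covered a wide range. The length was that of all annotated exons of a gene merged (860 bases for B2m, 3381 for Psmb8 and 3660 for Psmb9). It can exceed that of the transcripts expressed, which would lower a gene's level on this scale. In chow-fed Xbp1fl/fl hepatocytes B2m led with a mean of 2073 CPM per kb, followed by H2-K1 (500.1), H2-D1 (208) and H2-T23 (47.9), and these levels did not overlap between libraries. Tapbp (22.8) and Erap1 (17.8) came next, and their ranges of 15.1 to 27.0 and 16.2 to 19 CPM per kb overlapped. Psmb8 (6.43), Tap2 (4.83), Tap1 (4.45) and Psmb9 (3.94) closed the order with ranges that overlapped between neighbours. Hepatocyte levels of the light chain and of the 2 classical heavy chains were thus far above those of the transporter and the inducible proteasome subunits on this scale.

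B2m, H2-K1, H2-T23 and Tapbp were lower in Xbp1LKO than in Xbp1fl/fl hepatocytes on chow, and H2-K1, H2-T23 and Tapbp were lower on the HFS diet. That is 4 of 10 genes called lower on chow, where 3.02% of all genes tested were (4.75% called either way), and 3 of 10 on the HFS diet, where 2.16% were (4.08% either way). No member was called higher, where 1.73% and 1.92% of all genes were. Members and lists were chosen with earlier results of these data known. Here and below, shares of all genes set beside them are therefore a description, not a test. H2-K1, H2-T23 and Tapbp were lower on both diets, as were 1.37% of all genes. DESeq2 called 4 members on each diet, beside 8.17% and 7.23% of all genes. In simulated data DESeq2 made 24 false calls on chow and 22 on the HFS diet, where edgeR made 2 and 7. With only the chow groups fitted, 233 of 12367 genes and 0 members were called. Adjusted p was then 0.059 to 0.181 for B2m, H2-K1, H2-T23 and Tapbp. With only the HFS groups fitted, 809 of 12480 genes were called, among them these 4. Levels without overlap, with Xbp1LKO lower, were found in 15.9% of all genes on chow and 12.5% on the HFS diet. The median log2 fold change of the 10 genes was -0.36 on chow and -0.36 on the HFS diet, beside 0.00 and 0.01 for all genes. For B2m, H2-K1, H2-T23 and Tapbp, all 5 Xbp1LKO libraries lay below all 6 Xbp1fl/fl libraries whatever the diet, an order found in 4.34% of all genes tested.

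**Figure D1:**
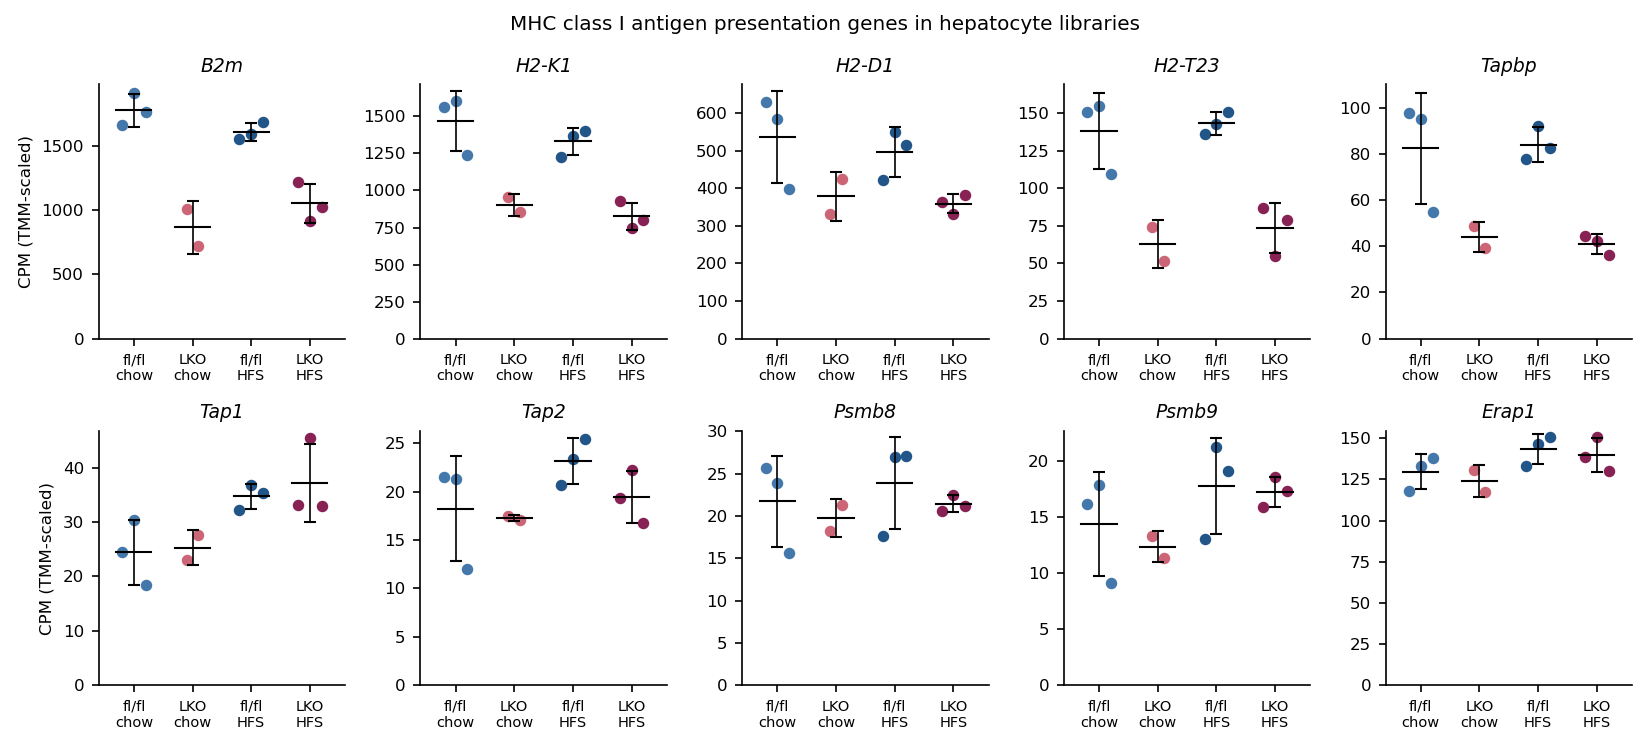
CPM of each of the 10 genes (linear axes from 0) in the 11 libraries by group; points are libraries, the horizontal line is the group mean and the bar is ± 1 SD. In B2m, H2-K1, H2-T23 and Tapbp each Xbp1LKO point (red and purple) lies below each Xbp1fl/fl point (blue), whereas the genotypes overlap in Tap1, Tap2, Psmb8, Psmb9 and Erap1.

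B2m, the invariant light chain that every class I heavy chain needs to fold and leave the endoplasmic reticulum, was about halved on chow. Its levels were 1664, 1920 and 1765 CPM in Xbp1fl/fl and 1014 and 721 CPM in Xbp1LKO libraries. With HFS feeding they were 1554, 1592 and 1687 CPM in Xbp1fl/fl and 1220, 916 and 1026 CPM in Xbp1LKO libraries. The Xbp1LKO libraries were the low ones on both diets, with no overlap. The log2 fold change was -1.04 (SE 0.19, adjusted p = 0.010) on chow and -0.61 (SE 0.16, adjusted p = 0.058) on the HFS diet, where only the first passed the threshold. DESeq2 called the HFS difference (adjusted p = 0.0024), and with library totals it was -0.36 (adjusted p = 0.094). The chow call was lost without Xbp1LKO chow replicate 2 (log2 fold change -0.82, adjusted p = 0.106), and the HFS difference was called without Xbp1LKO chow replicate 1 (adjusted p = 0.031) or 2 (0.030) or Xbp1LKO HFS replicate 1 (0.047). B2m shared no 50-base window with another annotated gene.

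Among the heavy chains, H2-K1, a classical molecule that presents peptides to CD8 T cells, stood at 1563, 1605 and 1240 CPM in Xbp1fl/fl and 954 and 852 CPM in Xbp1LKO libraries on chow. With HFS feeding it stood at 1227, 1367 and 1401 CPM against 928, 744 and 801 CPM. All Xbp1LKO libraries were below all Xbp1fl/fl libraries. H2-K1 fell by a similar amount on each diet, with a log2 fold change of -0.70 (SE 0.17, adjusted p = 0.036) on chow and -0.69 (SE 0.15, adjusted p = 0.025) on the HFS diet. Its chow call was close to the threshold: it was lost in 8 of 11 fits without 1 library (without either of Xbp1fl/fl chow replicates 1 and 2, either Xbp1LKO chow library, any Xbp1fl/fl HFS library or Xbp1LKO HFS replicate 3), with adjusted p up to 0.260. On the HFS diet it was lost without any of the 3 Xbp1fl/fl libraries or Xbp1LKO replicates 2 or 3 (adjusted p up to 0.124). In these fits the log2 fold change lay between -0.81 and -0.62 on chow and between -0.78 and -0.62 on the HFS diet. With library totals in place of TMM it was -0.38 (adjusted p = 0.080) on chow and -0.44 (adjusted p = 0.051) on the HFS diet, so that both calls were lost.

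H2-D1, the other classical heavy chain of this strain, did not pass the threshold on either diet. It measured 628, 583 and 398 CPM in Xbp1fl/fl and 332 and 424 CPM in Xbp1LKO libraries on chow, where the groups overlapped. With HFS feeding the values were 421, 550.0 and 515 CPM against 362, 331 and 381 CPM, with no overlap. The log2 fold changes were -0.50 (SE 0.21, 95% interval -0.96 to -0.05, adjusted p = 0.202) and -0.47 (SE 0.18, 95% interval -0.87 to -0.07, adjusted p = 0.205). These intervals leave out 0, but 19.3% and 17.5% of all genes reached an unadjusted p under 0.05 on chow and on the HFS diet. With library totals the values were -0.17 and -0.21.

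H2-T23 encodes Qa-1, a nonclassical molecule that presents leader peptides of other class I chains to natural killer cell receptors. It was 151, 155 and 109 CPM in Xbp1fl/fl and 74.0 and 51.6 CPM in Xbp1LKO libraries on chow. With HFS feeding, Xbp1fl/fl hepatocytes reached 136, 143 and 151 CPM and Xbp1LKO hepatocytes 87.0, 54.8 and 78.7 CPM. The lowest Xbp1fl/fl library was above the highest Xbp1LKO library on both diets. The log2 fold change was -1.14 (SE 0.23, adjusted p = 0.016) on chow and -0.96 (SE 0.20, adjusted p = 0.021) on the HFS diet. The chow call was lost without Xbp1fl/fl replicate 2 (adjusted p = 0.054) or Xbp1LKO replicate 2 (0.190), and the HFS call without any 1 of the Xbp1fl/fl libraries or Xbp1LKO replicates 2 or 3 (0.0545 to 0.0838).

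Class I heavy chain genes resemble one another: 9.63% of the 50-base windows of H2-K1 transcripts, 12.8% of those of H2-D1 and 14.5% of those of H2-T23 also occur in another gene, so reads could be split among them. A sum over 19 heavy chain genes of the K, D, Q, T and M regions is not changed by a split among those 19, but still depends on reads shared with genes outside it, such as H2-Q5, H2-T-ps and A930015D03Rik. The sum was 5347, 5835 and 4495 CPM in Xbp1fl/fl and 3040.5 and 2520 CPM in Xbp1LKO libraries on chow, and 4153, 4654 and 4478 CPM against 3216, 2250 and 2486 CPM on the HFS diet. The genotypes did not overlap. The summed log2 fold change was -0.91 (SE 0.20, adjusted p = 0.026) on chow and -0.74 (SE 0.17, adjusted p = 0.039) on the HFS diet. H2-Q10, the soluble chain, was the largest part of the sum in every library (2642 to 3345 CPM in Xbp1fl/fl and 1127 and 1604 CPM in Xbp1LKO libraries on chow). The sum is therefore not independent of H2-Q10. Without Xbp1LKO chow replicate 2 the chow value was -0.78 (adjusted p = 0.22), and the chow call was also lost without Xbp1fl/fl chow replicate 1 (0.057) or 2 (0.079). The HFS call was lost without Xbp1fl/fl chow replicate 1 or any 1 HFS library apart from Xbp1LKO replicate 1, with adjusted p from 0.051 to 0.168. With library totals the sum had -0.59 (adjusted p = 0.029) on chow and -0.49 (adjusted p = 0.050, not called) on the HFS diet. The count of B2m relative to this sum was 0.311 to 0.393 and 0.286 to 0.333 in Xbp1fl/fl and Xbp1LKO libraries on chow, and 0.342 to 0.377 against 0.379 to 0.413 with HFS feeding.

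**Figure D2:**
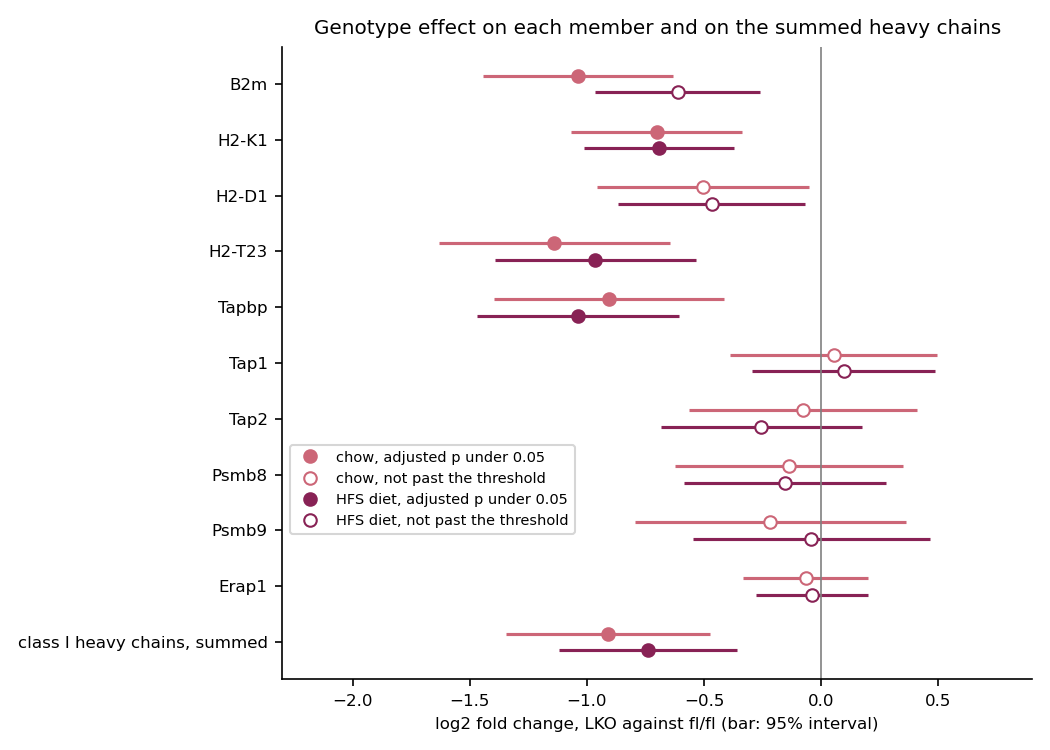
log2 fold change of Xbp1LKO against Xbp1fl/fl for each gene and for the summed heavy chains, on chow (light) and the HFS diet (dark); bars are 95% intervals from the edgeR model and filled points have an adjusted p under 0.05. Intervals of B2m, the heavy chains and Tapbp lie below 0, and those of Tap1, Tap2, Psmb8, Psmb9 and Erap1 span 0.

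Of 23 other class I and class I-like heavy chain genes, 16 passed the filter. On chow 5 of the 16 were called lower and none higher, and on the HFS diet 3 were called lower and 1 higher. Of all genes tested, 3.02% were called lower on chow, and 2.16% lower and 1.92% higher on the HFS diet. The 16 had a median log2 fold change of -0.90 and -0.40. The gene with the highest count was H2-Q10, the soluble class I chain of liver, at 2829.9, 3345 and 2642 CPM in Xbp1fl/fl and 1604 and 1127 CPM in Xbp1LKO libraries on chow. With HFS feeding it was at 2240, 2454 and 2278 CPM in Xbp1fl/fl and 1749, 1033 and 1143 CPM in Xbp1LKO mice. These did not overlap, with a log2 fold change of -1.11 (adjusted p = 0.027) on chow and -0.83 (adjusted p = 0.052, not called) on the HFS diet. Azgp1, which encodes a secreted, class I-like zinc-binding glycoprotein, changed most among those called lower, by -1.72 (adjusted p = 0.0045) on chow and -1.58 (adjusted p = 0.0028) on the HFS diet.

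H2-Q7, the Qa-2 heavy chain, fell by 1.62 (adjusted p = 0.0060) and 1.27 (adjusted p = 0.0094) on the log2 scale on chow and on the HFS diet. H2-T22, a ligand of some gamma delta T cell receptors, fell by 1.05 (adjusted p = 0.0053) and 0.71 (adjusted p = 0.016). H2-Q6 fell by 1.17 on chow (adjusted p = 0.0175), and on the HFS diet its log2 fold change was -0.79 (adjusted p = 0.055). H2-Q2 went the other way: it was 0.255 to 0.441 CPM in Xbp1fl/fl and 1.30 to 1.75 CPM in Xbp1LKO libraries on the HFS diet, with a log2 fold change of 2.02 (adjusted p = 0.019), and it was also the weakest expressed of those called. Sequence shared with other genes reached 53.5% of the windows of H2-T22, 35.0% of H2-Q6, 26.5% of H2-Q7, 19.1% of H2-Q10 and 16.1% of H2-Q2, so the split among them is uncertain, whereas Azgp1 shared none. Without Xbp1LKO chow replicate 2 all 5 chow calls were lost (adjusted p = 0.060 for Azgp1 to 0.252 for H2-Q10). H2-Q10 on chow was lost without Xbp1fl/fl replicate 2 as well (0.080), and H2-Q6 without Xbp1LKO replicate 1 (0.067). With HFS feeding H2-Q7 lost its call without Xbp1LKO replicate 2 (0.054), while H2-T22 lost its call without any 1 of the Xbp1fl/fl libraries or Xbp1LKO replicates 2 or 3 (0.052 to 0.085) and H2-Q2 without any Xbp1fl/fl library or Xbp1LKO replicate 2 (0.057 to 0.085).

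Tapbp, the tapasin that holds an empty class I molecule at the transporter until a fitting peptide binds, was also about halved. It was 97.9, 95.2 and 54.8 CPM in Xbp1fl/fl and 48.8 and 39.4 CPM in Xbp1LKO libraries on chow. On the HFS diet it was 77.8, 92.3 and 82.6 CPM against 44.5, 42.5 and 36.1 CPM. Xbp1fl/fl chow replicate 3 was the low one of its group, and still above every Xbp1LKO library. Tapbp had a log2 fold change of -0.91 (SE 0.22, adjusted p = 0.043) on chow and -1.04 (SE 0.20, adjusted p = 0.014) on the HFS diet. On chow the call held in 1 of 11 fits without 1 library, the one without Xbp1fl/fl replicate 3, and the other 10 had log2 fold changes of -1.07 to -0.76 with adjusted p from 0.053 to 0.348. The HFS call was gone without Xbp1fl/fl replicate 2 (0.053) or Xbp1LKO replicates 2 (0.063) or 3 (0.066). With library totals the chow value was -0.58 (adjusted p = 0.063). Tapbp overlaps Zbtb22 on the same strand over 3422 bases, and 23.2% of its windows occur elsewhere. Zbtb22 had 4921 and Tapbp 14875 counts over all libraries.

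Neither subunit of the peptide transporter passed the test. Tap1, 1 part of the pump that brings peptides into the endoplasmic reticulum, was 24.5, 30.3 and 18.3 CPM in Xbp1fl/fl and 23.04 and 27.5 CPM in Xbp1LKO libraries on chow. After HFS feeding it was 32.2, 36.8 and 35.3 CPM against 33.1, 45.4 and 32.9 CPM. The genotypes overlapped on both diets, and the log2 fold changes of 0.05 (95% interval -0.39 to 0.50) and 0.10 (95% interval -0.29 to 0.49) had adjusted p of 0.920 and 0.854. Tap2, its partner subunit, had 12.0 to 21.5 CPM and 17.0 and 17.4 CPM on chow, and 20.7 to 25.5 CPM and 16.8 to 22.2 CPM on the HFS diet. Its log2 fold changes were -0.08 (95% interval -0.57 to 0.41, adjusted p = 0.891) and -0.26 (95% interval -0.68 to 0.17, adjusted p = 0.576). The Tap2 intervals hold the values measured for H2-D1, and those of Tap1 do not.

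A ratio of 2 counts within a library does not depend on the scaling between libraries. Tapbp to Tap1 was 3.99, 3.14 and 2.99 in Xbp1fl/fl and 2.12 and 1.43 in Xbp1LKO libraries on chow, and 2.42, 2.51 and 2.34 against 1.34, 0.936 and 1.10 on the HFS diet. Each Xbp1LKO library was below each Xbp1fl/fl library, whatever the diet. This ratio was chosen after the values of both genes were seen and is given without a test.

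**Figure D3:**
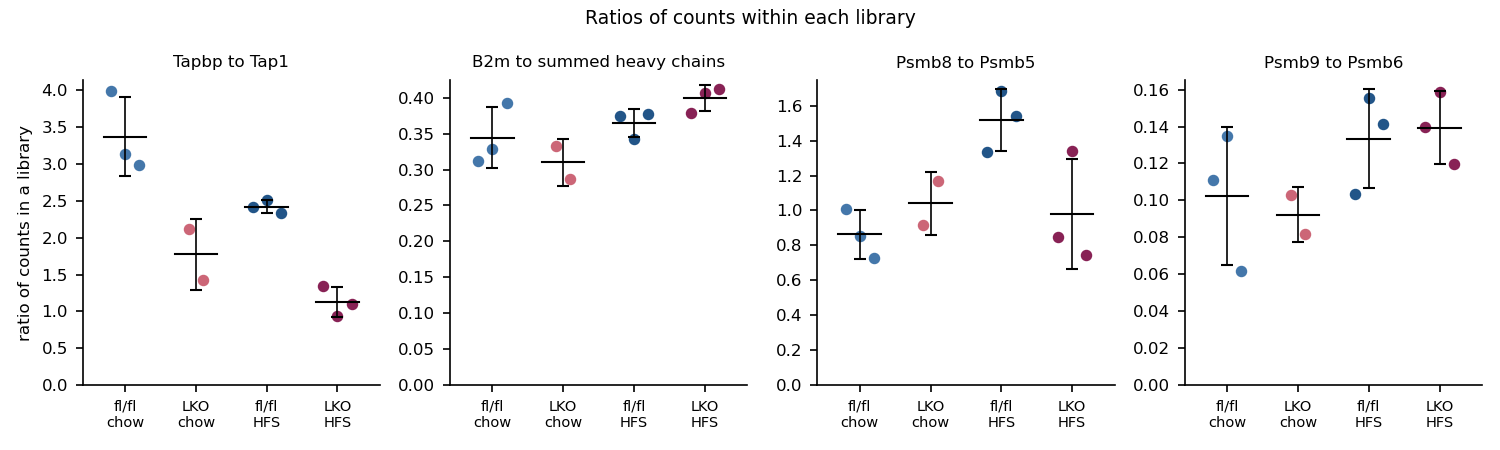
Ratios of counts within each library by group (linear axes from 0); points are libraries, lines are group means and bars ± 1 SD. Tapbp to Tap1 is 2.34 to 3.99 in Xbp1fl/fl and 0.936 to 2.12 in Xbp1LKO libraries, and the genotypes overlap in the other ratios with both diets pooled.

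Of 15 partners in peptide loading and trimming, all tested, 2 were called lower on each diet (3.02% and 2.16% of all genes) and none higher, with a median log2 fold change of -0.19 on chow and -0.20 on the HFS diet. Both belong to the Sec61 channel, through which heavy chains and B2m enter the endoplasmic reticulum. Sec61b fell by 1.46 (adjusted p = 0.0073) on chow and by 1.16 (adjusted p = 0.010) on the HFS diet on the log2 scale, and Sec61a1 fell by 1.05 (adjusted p = 0.0095) and by 0.90 (adjusted p = 0.011). Both chow calls were lost without Xbp1LKO replicate 2 (adjusted p = 0.084 and 0.080), and the HFS call of Sec61a1 without Xbp1LKO replicate 2 (0.052). Hspa5, the chaperone BiP, had log2 fold changes of 0.47 (SE 0.47, adjusted p = 0.645) on chow and -0.07 (SE 0.42, adjusted p = 0.964) on the HFS diet. Calr, the lectin chaperone of the loading complex, had 0.34 (SE 0.26, adjusted p = 0.521) and -0.35 (SE 0.23, adjusted p = 0.510). Both were high in Xbp1LKO chow replicate 2 (2639 and 1724 CPM) and lower in Xbp1LKO chow replicate 1 (786 and 852 CPM).

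The inducible proteasome subunits overlapped between genotypes on both diets. Psmb8 was 25.7, 23.9 and 15.6 CPM in Xbp1fl/fl and 18.2 and 21.3 CPM in Xbp1LKO libraries on chow, and 17.6, 27.0 and 27.1 CPM against 20.6, 22.5 and 21.2 CPM on the HFS diet. Its log2 fold changes were -0.14 (95% interval -0.62 to 0.35, adjusted p = 0.794) and -0.16 (95% interval -0.59 to 0.28, adjusted p = 0.762). Psmb9 ranged from 9.16 to 17.9 CPM and was 13.4 and 11.4 CPM on chow, and from 13.1 to 21.3 CPM and 15.9 to 18.6 CPM on the HFS diet. For Psmb9 the log2 fold changes were -0.22 (95% interval -0.80 to 0.36, adjusted p = 0.716) and -0.04 (95% interval -0.55 to 0.46, adjusted p = 0.960). None of 8 proteasome partners was called by edgeR or DESeq2 on either diet (unadjusted p under 0.05 for 0 on chow and 2 on the HFS diet), among them Psmb6, the constitutive subunit that Psmb9 replaces (log2 fold change -0.08 on each diet), and Pomp, an assembly factor (-0.12 and -0.13).

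To compare immunoproteasome with constitutive proteasome independently of scaling, the ratios of Psmb8 to Psmb5, Psmb9 to Psmb6 and Psmb10 to Psmb7 were tested. Psmb8 to Psmb5 was 0.729 to 1.01 in Xbp1fl/fl and 0.914 and 1.17 in Xbp1LKO libraries on chow. With HFS feeding it was 1.33 to 1.68 against 0.748 to 1.34. The log2 differences between genotypes were -0.20, -0.01 and -0.24 in the order named, with adjusted p of 0.57, 0.98 and 0.54 from a two-sided exact permutation test within diets (200 arrangements, smallest p 0.005, adjusted over 3 ratios). None of the 3 ratios passed the threshold, and the design has few libraries.

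Erap1, the peptidase that trims peptides to a length that fits class I, had the narrowest intervals. It was 118, 133 and 138 CPM in Xbp1fl/fl and 131 and 117 CPM in Xbp1LKO libraries on chow. It was 133, 147 and 151 CPM against 139, 151 and 130.2 CPM on the HFS diet. The genotypes overlapped, with log2 fold changes of -0.06 (95% interval -0.33 to 0.20, adjusted p = 0.823) and -0.04 (95% interval -0.28 to 0.20, adjusted p = 0.912). The end of Erap1 overlaps Cast on the other strand over 834 bases.

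The 27 tested regulators of class I genes (of 28 listed) held no call on chow and 1 on the HFS diet, near the 4.08% of all genes called there. An unadjusted p under 0.05 was found for 6 on chow and 3 on the HFS diet, where 19.3% and 17.5% of all genes had one. DESeq2 called 1 on each, beside 8.17% and 7.23% of all genes. Ifnar2, a chain of the type I interferon receptor, was 39.6 to 45.1 CPM in Xbp1fl/fl and 26.1 to 28.9 CPM in Xbp1LKO libraries on the HFS diet, a log2 fold change of -0.60 (adjusted p = 0.0054). On chow its log2 fold change was -0.40 (adjusted p = 0.053). The regulators had a median log2 fold change of 0.00 on chow and -0.03 on the HFS diet. Stat3 (0.14 and -0.18) and Jak1 (0.03 and -0.04), the most abundant of the list, were not called. Nlrc5 and Irf1, singled out after their values were seen because they control class I genes, were not called either. Nlrc5, the class I transactivator, had log2 fold changes of -0.05 (95% interval -0.44 to 0.33, adjusted p = 0.907) and 0.03 (95% interval -0.31 to 0.38, adjusted p = 0.949). Irf1, an interferon-induced transcription factor, had 0.21 (adjusted p = 0.538) and 0.31 (adjusted p = 0.319).

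**Figure D4:**
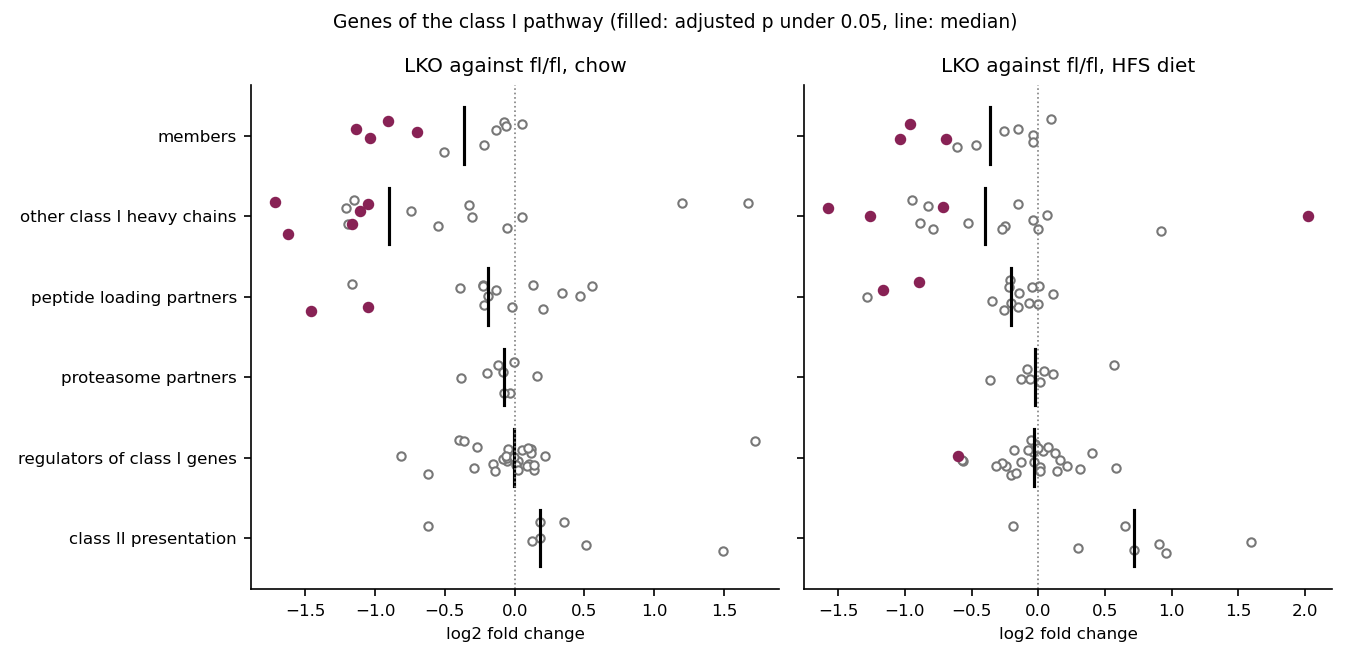
log2 fold change of Xbp1LKO against Xbp1fl/fl on chow (left) and the HFS diet (right) for the 10 genes and 5 lists of related genes; each point is a gene that was tested, filled points have an adjusted p under 0.05 and the line is the list's median. On chow, calls are 4 of 10 genes, 5 of 16 other heavy chains, 2 of 15 loading partners, 0 of 27 regulators, 0 of 8 proteasome partners and 0 of 7 class II genes, and on the HFS diet 3, 4, 2, 1, 0 and 0, where 4.75% and 4.08% of all genes were called, too few for lists of 7 or 8 genes to be told from the rest.

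Isolated hepatocytes can carry other liver cells, many of which express class I genes. The summed level of 16 hepatocyte markers was 151086 to 183539 CPM in Xbp1fl/fl and 49059 and 81149 CPM in Xbp1LKO libraries on chow, and 129817 to 144895 CPM and 67513 to 99893 CPM on the HFS diet, lower in each Xbp1LKO library without overlap. Of the 16, 15 had a negative log2 fold change on chow and 14 on the HFS diet, with medians of -0.45 and -0.43 beside -0.36 and -0.36 for the 10 class I genes. On chow 3 of the 16 were called lower (Alb, F2 and Serpina1a) and on the HFS diet 2 (F2 and Apoa1). Of all genes, 3.02% and 2.16% were called lower. The sum was led by Alb, at 64343 to 119367 CPM in Xbp1fl/fl and 14021 to 51478 CPM in Xbp1LKO libraries over both diets. With diets pooled, all Xbp1LKO libraries were below all Xbp1fl/fl libraries in Alb, Apoa1, Apoa2, Serpina1a and F2. The other markers overlapped, among them Hnf4a (Xbp1fl/fl 775 to 905, Xbp1LKO 693 to 887 CPM) and Asgr1 (593 to 756 and 608 to 739 CPM). The 13 endothelial markers, led by Stab2 and Stab1, summed to 55.9 to 135 CPM in Xbp1fl/fl and 32.9 and 42.6 CPM in Xbp1LKO libraries on chow, without overlap. With HFS feeding they summed to 108 to 185 CPM and 89.2 to 143 CPM and overlapped. All 13 had a negative log2 fold change on both diets, with medians of -1.31 and -0.39. None was called by edgeR, but on chow 11 of the 13 had an unadjusted p under 0.05 and DESeq2 called 9, against 0 and 0 on the HFS diet. Of all genes, 19.3% had such a p on chow and 8.17% were called by DESeq2, against 17.5% and 7.23% on the HFS diet. The part of hepatocyte or endothelial markers in the lower B2m, heavy chain and Tapbp levels was not tested.

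Macrophage markers (15, led by Cd5l and Clec4f) summed to 22.9 to 99.4 CPM and 26.9 and 39.7 CPM on chow. Of the 15, 14 had a negative log2 fold change there (median -0.47), but the genotypes overlapped. The sum of 99.4 CPM was that of Xbp1fl/fl chow replicate 1 alone. The other Xbp1fl/fl chow libraries were below both Xbp1LKO chow libraries. With HFS feeding the sums were 45.2 to 62.7 CPM and 63.5 to 108 CPM, higher in every Xbp1LKO library with 1 of 15 negative (median 0.60). The part of macrophages, stellate cells or cholangiocytes in the class I levels was not tested. Stellate cell markers (10, led by Dcn and Reln) summed to 14.2 to 44.5 CPM and 9.56 and 10.2 CPM on chow, without overlap. All 9 tested markers were negative there (median -1.28), 4 with an unadjusted p under 0.05 and 2 called by DESeq2. Of all genes, 19.3% had such a p on chow and 8.17% were called by DESeq2. HFS libraries had 24.8 to 43.5 CPM and 30.8 to 64.7 CPM, with 2 of 9 negative (median 0.37). Cholangiocyte markers (8, of which Sox9 and Wfdc2 were called lower on chow and Wfdc2 on the HFS diet, and Spp1 was the most abundant) summed to 12.8 to 15.7 CPM and 5.16 and 6.53 CPM, and to 7.05 to 18.7 CPM and 11.5 to 17.6 CPM. Of 14 lymphocyte markers 13 had a mean under 1 CPM and 10 had at most 10 counts over all libraries, among them Cd8a with 1 and Trac with 7 counts. Ptprc and Cd4 were the most abundant of them, and Cd4 was the 1 called between diets (higher on the HFS diet in Xbp1fl/fl hepatocytes, adjusted p = 0.042). The lymphocyte sum was 0.946 to 5.41 CPM in all libraries. In bulk RNA, fewer cells of a type and less RNA per cell cannot be told apart.

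Class II presentation, a trait of dendritic cells, macrophages and B cells, held no edgeR call. Of 12 listed genes 7 were tested and none was called by edgeR (unadjusted p under 0.05 for 1 on each diet, DESeq2 1 on chow and 0 on the HFS diet), with a median log2 fold change of 0.18 on chow and 0.72 on the HFS diet. Cd74, the invariant chain, had 0.51 (adjusted p = 0.572) and 0.72 (adjusted p = 0.393), and Ctss, the protease that degrades it, -0.62 (adjusted p = 0.603) and 0.91 (adjusted p = 0.375). The 12 genes summed to 9.07 to 26.2 CPM in the 11 libraries. Of all genes, 19.3% and 17.5% had an unadjusted p under 0.05 on chow and on the HFS diet.

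The HFS diet changed none of the 10 genes by edgeR in either genotype, where 0.428% of all genes tested were called in Xbp1fl/fl and 0.0601% in Xbp1LKO hepatocytes. DESeq2 called none either, beside 1.2% and 1.54% of all genes. The 1 gene with an unadjusted p under 0.05 in each genotype was Tap1, where 8.95% and 12.7% of all genes were. It was 18.3 to 30.3 CPM on chow and 32.2 to 36.8 CPM on the HFS diet in Xbp1fl/fl, and 23.04 and 27.5 CPM against 32.9 to 45.4 CPM in Xbp1LKO libraries, so the diets did not overlap in either genotype. Such an order with HFS higher held for 6.33% and 16.7% of all genes. The diet contrasts of the genotypes share no library. Their log2 fold changes for Tap1 were 0.51 (SE 0.18, adjusted p = 0.406) and 0.55 (SE 0.20, adjusted p = 0.297), and both were called when no filter on low counts was used. Psmb9 was 11.4 and 13.4 CPM on chow and 15.9 to 18.6 CPM on the HFS diet in Xbp1LKO libraries, without overlap and not called (log2 fold change 0.48, adjusted p = 0.476).

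Whether the genotype effect differed between diets was tested by the interaction. None of the 10 genes and 0 of all genes were called by edgeR, none of the 10 genes had an unadjusted p under 0.05 (6.13% of all genes), and DESeq2 called 31 genes (0.227%) of which none was a member. The estimate farthest from 0 was that of B2m, at 0.43 on the log2 scale (SE 0.24, 95% interval -0.10 to 0.96, adjusted p = 0.832). For Tapbp it was -0.13 (95% interval -0.77 to 0.51) and for H2-T23 0.17 (95% interval -0.46 to 0.81).

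Since calls within 1 diet rested on few libraries, genotype was also averaged over both diets in an additive model of all 11 libraries, an alternative chosen after the data were seen. It called 5 of the 10 genes lower, where 6.37% of all genes tested were called lower. The log2 fold changes were -0.80 (SE 0.13, adjusted p = 0.0021) for B2m, -0.70 (SE 0.10, adjusted p = 0.0012) for H2-K1, -0.48 (SE 0.13, adjusted p = 0.031) for H2-D1, -1.04 (SE 0.14, adjusted p = 7.5e-04) for H2-T23 and -0.98 (SE 0.14, adjusted p = 0.0010) for Tapbp. The other 5 genes were not called, and their 95% intervals were -0.20 to 0.36 for Tap1, -0.49 to 0.13 for Tap2, -0.45 to 0.16 for Psmb8, -0.49 to 0.25 for Psmb9 and -0.22 to 0.12 for Erap1.

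The genes outside the lists with the pattern most like the mean of the 10 genes over the 11 libraries, among 7411 genes of at least 10 CPM, were Fn1 (fibronectin, Pearson's r = 0.96), Tm7sf3 (0.96), Cpn2 (a subunit of plasma carboxypeptidase N, 0.95), Clcc1 (0.95) and Naglu (a lysosomal hydrolase, 0.95). The 11 points share 2 genotypes and 2 diets, and the values are a description. Fn1 was 1507 to 2986 CPM in Xbp1fl/fl and 1193 and 1398 CPM in Xbp1LKO libraries on chow, and 2642 to 3639 CPM and 1154 to 1573 CPM on the HFS diet. Its log2 fold change was -0.85 (adjusted p = 0.102) on chow and -1.17 (adjusted p = 0.021) on the HFS diet.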

How the data were processed

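Hepatocytes were purified by density centrifugation, and RNA was sequenced as 50-base single-end reads by the authors. They deposited whole-number counts per Ensembl gene, neither normalized nor filtered. The paper names kallisto and tximport, whereas the submitters' processing notes list cutadapt 1.13, STAR, HTSeq 0.6.1p1, DESeq2 and mm10. Which made the counts is unsettled, and it decides how reads shared by paralogs or overlapping genes were split. Kit names also differ (stranded mRNA or total RNA).

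Of 54232 identifiers 54165 were found in GENCODE M21 (GRCm38), which gave symbols. edgeR 4.0.16 (R 4.3.3) gave TMM factors. After filterByExpr with a minimum count of 10, quasi-likelihood tests came from 1 fit of 4 group means over the 11 libraries, with Benjamini-Hochberg adjustment over 13303 genes and a threshold of 0.05. DESeq2 1.42.0 was an alternative. SE is the log2 fold change divided by the square root of F. Depth was 19191032 to 23888401 counts per library. The variance between replicates was 25.4 to 91.5 times that of counting alone (chi-square over its degrees of freedom), so no counting intervals are given. Nothing states that libraries of a group are independent beyond the mice they came from, and p-values measure the spread between these libraries.

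Members and gene lists were chosen with earlier results of these data known. Named were all 10 members, each list's called genes (up to 5 with the smallest p) and its 2 most abundant genes, the 5 genes most like the members, and Xbp1. Lists were other class I heavy chains, peptide loading partners, proteasome partners, regulators, class II presentation, and macrophage, lymphocyte, endothelial, stellate, cholangiocyte and hepatocyte markers. Nrd1 was matched under a later symbol. Shared sequence is the percentage of 50-base windows of a gene's transcripts found in another gene. In simulated data with 200 genes changed 2-fold among 13303, edgeR recovered 56.5% on chow with 2 false calls and 65.5% on the HFS diet with 7. DESeq2 recovered 69% on chow with 24 false calls and 78.5% on the HFS diet with 22. Alternatives were DESeq2, RLE factors, library totals, no filter or a minimum count of 50, only the groups compared, replicate blocks, an averaged genotype effect and each library left out. Other data types of the study were not analysed here.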

Additional observations from a re-analysis of the deposited data

How the results depend on the processing

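The directions of B2m, H2-K1, H2-D1, H2-T23 and Tapbp stayed lower in Xbp1LKO hepatocytes on both diets under every alternative run, while their calls moved. With library totals, genes called were 3000 on chow and 1483 on the HFS diet, 2 members were called on each diet (lost were H2-K1, -0.38 and -0.44, adjusted p = 0.080 and 0.051, and on chow Tapbp, -0.58, adjusted p = 0.063), H2-D1 was -0.17 and -0.21 and B2m on the HFS diet -0.36, the summed heavy chains on the HFS diet had -0.49 (adjusted p = 0.050), and signs turned for Tap2 (0.25 and 0.0057), Psmb8 (0.20 and 0.11), Psmb9 (0.11 and 0.22) and Erap1 (0.26 and 0.22) on chow and the HFS diet, none of them called. DESeq2 called 1115 and 987 genes for genotype on chow and the HFS diet, 175 and 210 for diet in Xbp1fl/fl and Xbp1LKO hepatocytes and 31 for the interaction. Without a filter these were 1507, 1438, 499, 722 and 269, with 1 member (Tap1) called for diet in each genotype. With only the groups compared, 233 genes and 0 members were called on chow, the summed heavy chains there had -0.91 (adjusted p = 0.133) and 0 genes were called for diet in Xbp1LKO hepatocytes. That fit has 5 libraries on chow. Genotype averaged over diets called 1562 genes in all and 5 members, against 4 on chow and 3 on the HFS diet.

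Replicate numbers in the titles do not mark shared animals, and deviations of same-numbered libraries correlated by -0.20 to 0.23 (15 pairs), with 4 of 11 libraries closest to one of their own number. A replicate block on these numbers called 19 genes for diet in Xbp1LKO hepatocytes, gave -0.75 (adjusted p = 0.066) for the summed heavy chains on the HFS diet, lost H2-K1 on chow (-0.73, adjusted p = 0.069) and on the HFS diet (-0.70, adjusted p = 0.051) and turned Tap1 on chow to -0.014. A replicate block on the numbers in the deposited data, where 1 Xbp1LKO chow library differs, gave 53 genes, -0.91 (adjusted p = 0.055) on chow and -0.75 (adjusted p = 0.062) on the HFS diet for the sum, and 0.019 for Tap2 on chow, and also lost H2-K1 on chow (-0.69, adjusted p = 0.081) and on the HFS diet (-0.70, adjusted p = 0.051).

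With each library left out in turn (11 fits), genes called ranged from 69 (without Xbp1LKO chow replicate 2) to 762 (without Xbp1LKO chow replicate 1) for genotype on chow, 184 to 662 on the HFS diet, 6 to 59 for diet in Xbp1fl/fl and 0 to 36 in Xbp1LKO hepatocytes, and members called from 0 to 4 on each diet. The summed heavy chains ranged from -1.05 to -0.78 on chow and -0.90 to -0.63 on the HFS diet. Signs turned on chow for Tap1 (-0.12 to 0.24), Tap2 (-0.31 to 0.058), Psmb8 (-0.33 to 0.0011) and Erap1 (-0.15 to 0.012), on the HFS diet for Tap1 (-0.073 to 0.18), Psmb9 (-0.22 to 0.10) and Erap1 (-0.095 to 0.011), and for the Psmb9 to Psmb6 ratio (-0.17 to 0.11), none of them called. Depth was 23232834 to 23888401 counts in Xbp1LKO HFS libraries and 19191032 to 22573249 in the others, and the 2 Xbp1LKO chow libraries limit the chow comparison. The lowest member count in a library was 184 (Psmb9).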
